A study of Mus musculus with 8 samples.

Results

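TCF-1, encoded by Tcf7, and 8 genes linked to the naive or resting state of T cells (Lef1, Satb1, Bach2, Id2, Id3, Myb, Themis and Dapl1) were followed across 4 groups of mouse regulatory T cell libraries. The genes were taken by symbol, 9 of the 55665 genes in the deposited tables, and all 9 were among the 16642 genes with enough reads to be tested. RNA was sequenced from regulatory T (nTreg) cells, sorted as CD4+GFP+ cells from spleen and lymph nodes and then cultured. All cells carried the alleles RosaCas9/+, which supplies the Cas9 nuclease, and Foxp3gfp, a reporter of Foxp3 expression. The groups were sgFoxp3 cells given anti-CD3 and anti-CD28 antibodies (3 h), sgFoxp3 cells given Mock (DPBS) (0 h), sgNC cells given the antibodies (3 h) and sgNC cells given Mock (DPBS) (0 h), with 2 libraries in each. The guide against Foxp3 is called the Foxp3 guide below, and the change from 0 h to 3 h the TCR effect. The labels do not spell out sgNC, which is read here as the control guide. The age of the mice, and how many were used for a library, are not given in the sources used here. Nothing in the labels says that replicates came from separate cultures or animals, so the p-values measure the spread between libraries, which may be technical.

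TCF-1 and its relative LEF-1 bind the same DNA element, recruit either beta-catenin or Groucho/TLE corepressors, and are abundant in naive and memory T cells. T cell receptor (TCR) signalling shuts them down as cells take on effector functions. SATB1 organizes chromatin loops in thymocytes and regulatory T cells, BACH2 is a repressor of effector genes, and ID2 and ID3 block E proteins by binding them without contacting DNA. MYB is a DNA-binding factor of progenitors and of effector regulatory T cells, THEMIS is a signalling adaptor of the TCR, and Dapl1, a relative of a death-associated protein gene, serves as a marker of naive T cells.

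Foxp3 itself checked the labels. It stood at 76.1 and 71.8 CPM (counts scaled to library size) in Foxp3-guide libraries at 3 h, against 678.8 and 673.4 CPM in control-guide libraries at 3 h. At 0 h it stood at 87.6 and 88.5 CPM with the Foxp3 guide, against 763.9 and 775.9 CPM with the control guide. Some Foxp3 transcript remained in the edited cells, and the gene-level counts used here cannot tell a frameshifted transcript from an intact one. The T cell markers Cd3e and Cd4 were present in all libraries, with Cd3e between 130.2 and 245.9 CPM. Total expected counts were 38729009 to 94807362 per library. Marker lists of thymocytes, B cells, CD8 T cells and myeloid cells each summed to at most 39.3 CPM in any library. No marker was at 0 in every library. The 4 erythroid markers, 2 of which passed the filter, summed to 71.4 to 72.9 CPM in Foxp3-guide libraries at 3 h and 65.4 to 66.3 CPM at 0 h, against 7.01 to 7.15 CPM in control-guide libraries at 3 h and 8.94 to 9.03 CPM at 0 h, nearly all from Hba-a1. The 6 myeloid markers, 3 of which passed, summed to 6.96 to 7.80 CPM in Foxp3-guide libraries at 3 h, against 1.33 to 1.35 CPM in control-guide libraries at 3 h. At 0 h they summed to 2.18 to 2.30 CPM with the Foxp3 guide, against 1.92 to 2.08 CPM with the control guide. The part of these cells in the results below was not tested.

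Upstream sequence was read from the RefSeq table of promoters (GRCm38.p6), which holds 18 windows for the 9 genes, each running from 250 bases before to 50 bases after a start. It was searched on both strands for 3 short sets of letters, since Foxp3 is itself a forkhead factor and TCF-1, LEF-1 and BACH2 are factors whose own genes were measured. The forkhead letters TGTTTAC, or their reverse complement, occurred in 3 of the 9 genes, against 4.05% of the 27025 genes in the table. The TCF/LEF letters CTTTGA, or their reverse complement, occurred in 2 of the 9, against 18.2% of all genes. The BACH and AP-1 letters TGANTCA occurred in 0 of the 9, against 8.97%. The 9 genes had more windows per gene than the whole table, so these shares by gene do not compare equal lengths of sequence. By window, the forkhead letters occurred in 3 of the 18, against 3.65% of all 32851 windows. The TCF/LEF letters occurred in 2 of the 18, against 16% of all windows. No matched base was shared between the 3 motifs, and a match describes letters only, not binding. The matching stretches are shown because each belongs to a gene whose level is described below. Capitals mark the matched letters.
Dapl1, 250 bases before its start, chr2:59484403-59484652, plus strand: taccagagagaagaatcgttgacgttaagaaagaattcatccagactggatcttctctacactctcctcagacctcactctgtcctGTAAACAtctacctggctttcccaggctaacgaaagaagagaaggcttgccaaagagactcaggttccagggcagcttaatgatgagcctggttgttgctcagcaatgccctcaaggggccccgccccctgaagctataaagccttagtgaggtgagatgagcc
Lef1, 250 bases before an internal start, chr3:131156044-131156293, plus strand: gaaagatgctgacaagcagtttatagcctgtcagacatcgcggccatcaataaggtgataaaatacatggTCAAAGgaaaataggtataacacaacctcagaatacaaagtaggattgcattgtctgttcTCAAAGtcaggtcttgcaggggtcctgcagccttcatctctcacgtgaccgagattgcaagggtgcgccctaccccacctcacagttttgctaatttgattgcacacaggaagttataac
Tcf7, at an internal start, chr11:52282578-52282604, minus strand: ctttataggaGTAAACAgacccccgcc
Myb, just past its start, chr10:21160935-21160961, minus strand: tgatggcatcTGTTTACagagttacac
Bach2, before an internal start, chr4:32417332-32417357, plus strand: tgtgttgttcTCAAAGttgagtagag
The Lef1 stretch holds 2 TCF/LEF matches, 180 and 120 bases before that start, inside the gene.

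Tcf7 (ENSMUSG00000000782.15, chromosome 11, 52252371 to 52283014, minus strand) had the widest range of levels among the 9 genes. Positions here and below are those of GENCODE M21 on GRCm38, where all 9 are protein-coding genes. Tcf7 stood at 20.1 and 19.1 TPM (abundance scaled for gene length and library size) in Foxp3-guide libraries at 3 h and at 636 and 642 TPM at 0 h, against 18.7 and 18.4 TPM in control-guide libraries at 3 h and 148 and 150 TPM at 0 h. At 0 h the edited cells thus held the highest level of the gene, far above the control cells, while both stimulated groups sat close together at the low end. The edgeR log2 change for the Foxp3 guide over the control guide was 0.29 at 3 h (SE 0.046, adjusted p 6.8e-06) and 2.39 at 0 h (SE 0.039, adjusted p 1.45e-23). On the log2(TPM + 1) scale the 3 h difference was 0.07 and did not pass (limma adjusted p 0.146). In CPM, Tcf7 was 26.6-fold lower after stimulation with the Foxp3 guide and 6.20-fold lower with the control guide. The difference between these TCR effects was -2.10 on the log2 scale (SE 0.059, adjusted p 2.27e-18).

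Lef1 (ENSMUSG00000027985.14, chromosome 3, 131110471 to 131224356, plus strand) changed direction between the times. It stood at 43.6 and 41.0 TPM in Foxp3-guide libraries at 3 h and at 247 and 268 TPM at 0 h, against 55.7 and 53.1 TPM in control-guide libraries at 3 h and 178 and 178 TPM at 0 h. The Foxp3-guide libraries were the lower at 3 h and the higher at 0 h, with no overlap at either time. With the Foxp3 guide Lef1 fell by 0.38 in log2 at 3 h (SE 0.041, edgeR adjusted p 1.79e-08) and rose by 0.86 at 0 h (SE 0.036, adjusted p 2.7e-16). After stimulation Lef1 was 6.71-fold lower in CPM with the Foxp3 guide and 2.85-fold lower with the control guide, a difference of -1.23 in log2 (SE 0.054, adjusted p 4.42e-15).

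**Figure D1:**
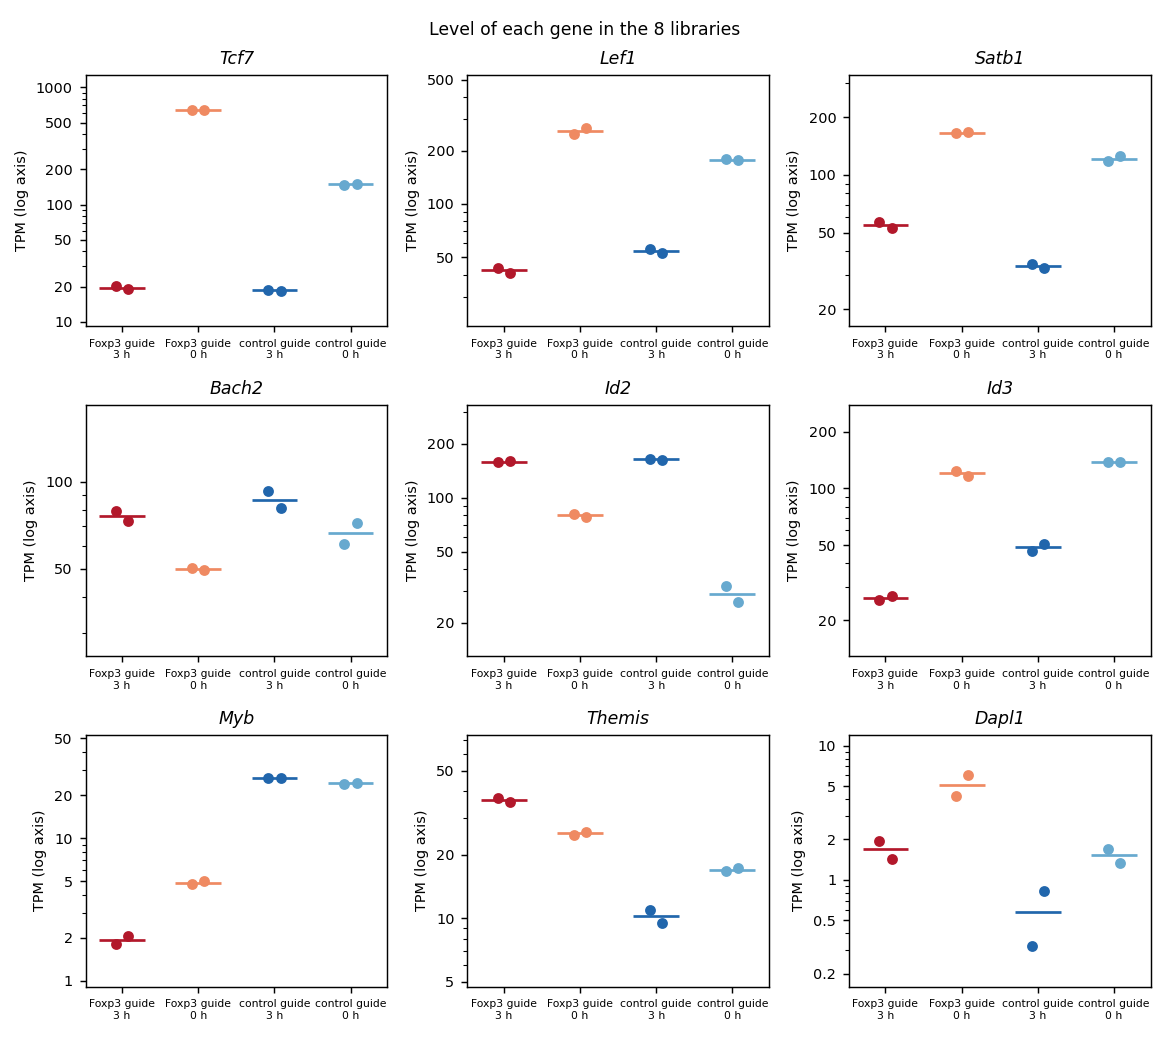
TPM on a log axis for each of the 9 genes in the 8 libraries, by guide and time, with a bar at the group mean; each point is 1 library. Tcf7 sat at 636 and 642 TPM in Foxp3-guide libraries at 0 h, above all other libraries, and Myb sat at 1.82 to 5.02 TPM in all 4 Foxp3-guide libraries, below all control-guide libraries.

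Satb1 (ENSMUSG00000023927.15, chromosome 17, 51736187 to 51833290, minus strand) was higher with the Foxp3 guide at both times. It stood at 57.0 and 52.7 TPM in Foxp3-guide libraries at 3 h and at 165 and 166 TPM at 0 h, against 34.3 and 32.6 TPM in control-guide libraries at 3 h and 118 and 125 TPM at 0 h. No group overlapped another. The log2 changes were 0.83 at 3 h (SE 0.039, edgeR adjusted p 2.4e-15) and 0.69 at 0 h (SE 0.036, adjusted p 2.57e-14). After stimulation it was 2.74-fold lower in CPM with the Foxp3 guide and 3.03-fold lower with the control guide. The difference of 0.14 in log2 (SE 0.053, edgeR adjusted p 0.0317) lost its call in 10 of 19 alternatives, including a fit of all genes without a filter on low counts (adjusted p 0.177). Genes annotated on the same strand within Satb1 drew counts equal to 2.07% of its own, the largest such share among the 9 genes.

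In CPM, Bach2 (ENSMUSG00000040270.16, chromosome 4, 32238804 to 32586108, plus strand) differed by at most 1.10-fold between the guides. It stood at 78.9 and 72.9 TPM in Foxp3-guide libraries at 3 h and at 50.1 and 49.6 TPM at 0 h, against 92.6 and 80.9 TPM in control-guide libraries at 3 h and 60.7 and 71.9 TPM at 0 h. In TPM the Foxp3-guide libraries were the lower at both times, and both guides were higher at 3 h. On log2(TPM + 1) the change with the Foxp3 guide was -0.19 at 3 h and did not pass (limma adjusted p 0.111). At 0 h it was -0.40 (limma adjusted p 0.0048). Relative to the median of all genes on that scale, these changes were -0.07 at 3 h and -0.25 at 0 h. Bach2 rose with stimulation under both guides, 1.91-fold in CPM in Foxp3-guide cells and 1.77-fold in control-guide cells. In CPM the Foxp3-guide and control-guide libraries overlapped at 3 h, where the log2 change was -0.02 (SE 0.042, edgeR adjusted p 0.66). At 0 h Bach2 fell by 0.14 in log2 (SE 0.042, adjusted p 0.00614), a call that was lost without control-guide 0 h replicate 2 (adjusted p 0.166) or Foxp3-guide 0 h replicate 2 (adjusted p 0.0686). The difference between the TCR effects was 0.12 (SE 0.059, adjusted p 0.118), which passed with the RLE and upper-quartile scalings, with DESeq2 and without Foxp3-guide 3 h replicate 2. B cells also express Bach2; the 6 B cell markers summed to at most 8.44 CPM in any library, and their part in these values was not tested.

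The Id genes moved in opposite directions after stimulation. Id2 (ENSMUSG00000020644.9, chromosome 12, 25093799 to 25097140, minus strand) stood at 157 and 160 TPM in Foxp3-guide libraries at 3 h and at 81.2 and 78.4 TPM at 0 h, against 165 and 162 TPM in control-guide libraries at 3 h and 32.2 and 26.1 TPM at 0 h. At 0 h the edited cells were well above the control cells, and after stimulation the guides were close. The log2 change was 0.16 at 3 h (SE 0.055, edgeR adjusted p 0.017) and 1.74 at 0 h (SE 0.068, adjusted p 3.13e-12). The 3 h call ended without control-guide 3 h replicate 1 (adjusted p 0.109) or 2 (0.105) and without Foxp3-guide 3 h replicate 2 (adjusted p 0.0505), and the change turned to -0.04 on log2(TPM + 1). After stimulation Id2 was 2.43-fold higher in CPM with the Foxp3 guide and 7.26-fold higher with the control guide, a difference of -1.58 in log2 (SE 0.088, adjusted p 8.37e-10). Innate lymphoid cells also express Id2. Their 6-gene marker list, with natural killer cell genes, of which 5 passed the filter, summed to 172.4 to 177.4 CPM in Foxp3-guide libraries at 3 h and 112.7 to 114.9 CPM at 0 h, against 141.3 to 149.9 CPM in control-guide libraries at 3 h and 60.2 to 62.0 CPM at 0 h, most of it from Kit and Il1rl1. All 5 tested markers were higher with the Foxp3 guide at 0 h, among them Klrb1c by 4.94 and Klrk1 by 1.99 in log2, each at or below 1.11 CPM in every library, while Ncr1 reached at most 0.0204 CPM in any library. At 3 h 3 of the tested markers were higher with the Foxp3 guide, 1 was lower and 1 did not pass. The lower one was Eomes, at -1.21 in log2, and Klrb1c reached at most 0.0365 CPM in Foxp3-guide libraries at 3 h. The part of this list in the Id2 result was not tested. In bulk RNA a change in the number of cells of a type and a change in RNA per cell cannot be told apart.

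Id3 (ENSMUSG00000007872.3, chromosome 4, 136143497 to 136145755, plus strand) stood at 25.8 and 27.0 TPM in Foxp3-guide libraries at 3 h and at 124 and 116 TPM at 0 h, against 46.5 and 50.7 TPM in control-guide libraries at 3 h and 139 and 138 TPM at 0 h. Levels were lower at 3 h under both guides. At 3 h the Foxp3-guide libraries were the lower, with a fall of 0.66 in log2 (SE 0.058, edgeR adjusted p 9.86e-10). At 0 h the log2 change of 0.09 did not pass (SE 0.050, adjusted p 0.133), and on log2(TPM + 1) it was -0.21 with a limma adjusted p of 0.0117. After stimulation Id3 was 3.74-fold lower in CPM with the Foxp3 guide and 2.22-fold lower with the control guide, a difference of -0.75 in log2 (SE 0.077, adjusted p 2.79e-08).

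Myb (ENSMUSG00000019982.15, chromosome 10, 21124935 to 21160984, minus strand) had the largest fall with the Foxp3 guide. It stood at 1.82 and 2.06 TPM in Foxp3-guide libraries at 3 h and at 4.73 and 5.02 TPM at 0 h, against 26.5 and 26.3 TPM in control-guide libraries at 3 h and 24.2 and 24.3 TPM at 0 h. All Foxp3-guide libraries lay below all control-guide libraries. In CPM it was 11.9-fold lower at 3 h (edgeR adjusted p 2.62e-23) and 4.23-fold lower at 0 h (adjusted p 3.04e-20). After stimulation Myb fell by 1.01 in log2 with the Foxp3 guide (SE 0.071) and rose by 0.46 with the control guide (SE 0.049). On log2(TPM + 1) the control-guide rise was 0.12 and did not pass (limma adjusted p 0.131). The difference was -1.47 (SE 0.086, edgeR adjusted p 7.75e-13). The thymocyte marker list, 5 genes of which 3 passed the filter, summed to 7.67 to 7.83 CPM in Foxp3-guide libraries at 3 h and 21.9 to 23.5 CPM at 0 h, against 15.3 to 15.4 CPM in control-guide libraries at 3 h and 37.2 to 39.3 CPM at 0 h. Most of each sum came from Cd1d1, at 6.73 and 6.58 CPM in Foxp3-guide libraries at 3 h and 21.4 and 22.8 CPM at 0 h. In control-guide libraries Cd1d1 stood at 11.7 and 12.4 CPM at 3 h and 37.3 and 35.3 CPM at 0 h. Dntt was at most 1.88 CPM in any library, and Ptcra, which did not pass the filter, at most 0.122 CPM. The sums were lower with the Foxp3 guide at both times, largely through Cd1d1. The part of this list in the Myb result was not tested.

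Themis (ENSMUSG00000049109.15, chromosome 10, 28668360 to 28883818, plus strand) was higher with the Foxp3 guide at both times. It stood at 37.0 and 35.4 TPM in Foxp3-guide libraries at 3 h and at 24.9 and 25.5 TPM at 0 h, against 10.95 and 9.48 TPM in control-guide libraries at 3 h and 16.7 and 17.3 TPM at 0 h. All Foxp3-guide libraries lay above all control-guide libraries. In CPM it was 4.17-fold higher at 3 h (edgeR adjusted p 2.28e-20) and 1.83-fold higher at 0 h (adjusted p 1.11e-13). The TCR effect was a rise of 0.53 in log2 with the Foxp3 guide (SE 0.046), while with the control guide Themis fell by 0.66 (SE 0.056). The difference between the TCR effects was 1.19 (SE 0.072, edgeR adjusted p 1.55e-12).

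Dapl1 (ENSMUSG00000026989.5, chromosome 2, 59484653 to 59505020, plus strand) had few reads, with 30 and 38 counts in Foxp3-guide libraries at 3 h and 78 and 107 at 0 h, against 4 and 10 in control-guide libraries at 3 h and 16 and 14 at 0 h. Despite the low counts the guides did not overlap at either time. The log2 change was 1.69 at 3 h (SE 0.42, edgeR adjusted p 0.00136) and 2.04 at 0 h (SE 0.31, adjusted p 3.08e-06). The 3 h change was 1.14 without control-guide 3 h replicate 1 (adjusted p 0.0407), 2.53 without control-guide 3 h replicate 2 and 0.79 on log2(TPM + 1), and the 0 h change was 1.26 on that scale. After stimulation Dapl1 fell by 1.33 in log2 with the Foxp3 guide (SE 0.26, adjusted p 5e-05). With the control guide the change was -0.99 (SE 0.49, adjusted p 0.0676), which passed with upper-quartile scaling, on log2(TPM + 1) and without control-guide 3 h replicate 2. The difference between the TCR effects was -0.35 (SE 0.59, adjusted p 0.676).

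Across the 9 genes, 5 were higher, 3 lower and 1 not past an edgeR adjusted p of 0.05 for the Foxp3 guide at 3 h, where 61.5% of all tested genes were called (30.7% higher and 30.8% lower). At 0 h 6 were higher, 2 lower and 1 not past, where 63.3% of all genes were called (34.2% higher and 29.1% lower). The median log2 change of the 9 genes was 0.16 at 3 h and 0.86 at 0 h, beside -0.01 and 0.02 over all genes. For the TCR effect with the Foxp3 guide, 3 rose and 6 fell, where 85.4% of all genes were called (40.8% higher and 44.5% lower), and with the control guide 3 rose, 5 fell and 1 did not pass, where 81.8% were called (40.9% higher and 40.9% lower). The TCR effects differed between the guides for 7 of the 9, 2 with a positive and 5 with a negative difference, where 44.8% of all genes were called (17.8% positive and 27% negative). These comparisons share libraries, so their counts are not separate evidence. The split of calls depended on the scale. Of the genes called at 3 h, 49.9% were higher with edgeR and 27.4% with log2(TPM + 1), and at 0 h the shares were 54.0% and 27.9%. For the TCR effects the shares were 47.8% and 38.7% with the Foxp3 guide, and 49.99% and 37.3% with the control guide. For the difference they were 39.7% and 51.5%.

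**Figure D2:**
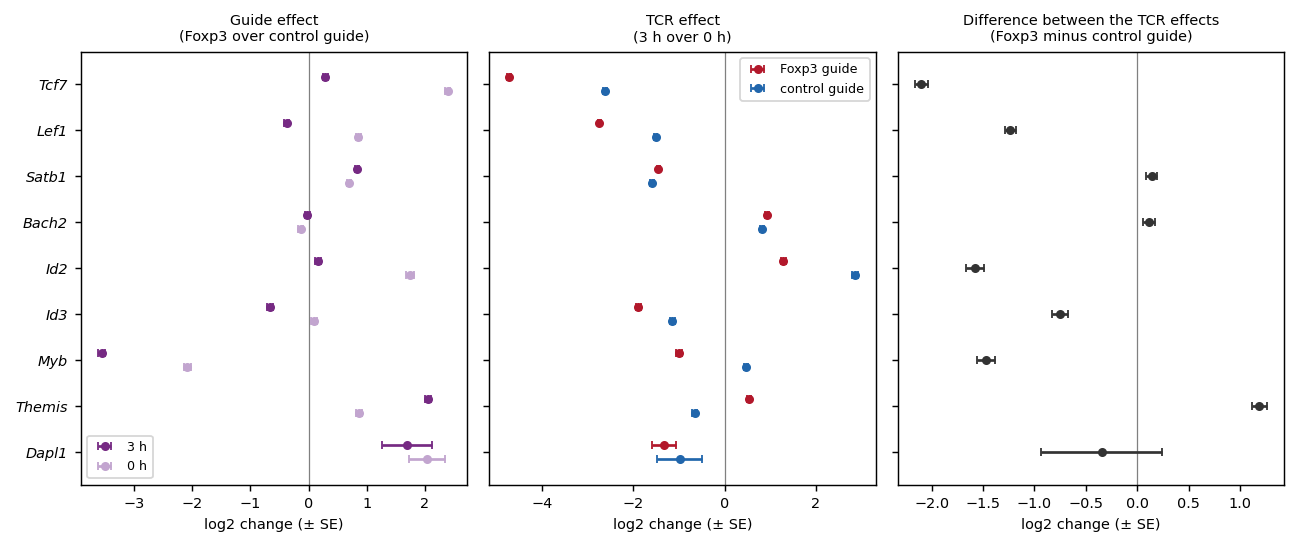
edgeR log2 changes with their SE for the 9 genes, as guide effects at 3 h and 0 h, as TCR effects with each guide, and as the difference between the TCR effects; points are fitted values. Tcf7 shows the most negative difference, -2.10, and Themis the most positive, 1.19.

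The order of the TPM levels differed between the groups. In Foxp3-guide libraries at 3 h, Id2 led, ahead of Bach2, Satb1, Lef1, Themis, Id3 and Tcf7, and Myb and Dapl1 overlapped at the bottom. At 0 h Tcf7 led with the Foxp3 guide, ahead of Lef1, Satb1, Id3, Id2, Bach2 and Themis, with Dapl1 and Myb overlapping. With the control guide at 3 h the order was Id2, Bach2, Lef1, Id3, Satb1, Myb, Tcf7, Themis and Dapl1, and at 0 h it was Lef1, Tcf7, Id3, Satb1, Bach2, Id2, Myb, Themis and Dapl1, with no overlap between neighbours in either.

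The genes most like each of the 9 over the 4 groups were found among 8776 others by the root mean square difference between centred log2 CPM. Bach2 was closest to Gpat4 at 0.0154, Id2 to AI506816 at 0.0130 and Id3 to Tbc1d9b at 0.0167. Satb1 was closest to Sft2d2 at 0.0447, Dapl1 to Ercc6l at 0.0700, Lef1 to Cep89 at 0.116 and Themis to Tanc2 at 0.130. Myb was closest to Sdc4 at 0.228, and Foxp3 was the third closest at 0.394. Tcf7 was closest to Fgl2 at 0.393. The values were centred but not scaled, so a gene with a wide range, such as Tcf7, can lie far from a gene of similar shape. These distances are descriptions over 4 group means.

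Related genes were followed as lists, with counts at an edgeR adjusted p of 0.05 to be read against the shares of all genes above. Of 17 TCF/LEF relatives, cofactors and targets, 6 were higher and 7 lower at 3 h, and 6 higher and 9 lower at 0 h, with medians of -0.07 and -0.28. Axin2, a target of the beta-catenin pathway, was higher by 1.80 in log2 at 3 h and by 0.61 at 0 h. Tcf7l2, another TCF family member, was lower by a log2 change of -2.33 at 3 h and -2.85 at 0 h, and on log2(TPM + 1) by -0.25 and -0.59. It had 5 and 7 counts in Foxp3-guide libraries at 3 h and 6 and 13 at 0 h, against 22 and 19 in control-guide libraries at 3 h and 50 and 43 at 0 h. The corepressor Tle2 was lower at -2.65 at 3 h and -1.61 at 0 h, and on log2(TPM + 1) at -0.81 and -1.19. Of 4 tested E and Id proteins other than Id2 and Id3, 0 were higher and 3 lower at 3 h, and 1 was higher and 3 lower at 0 h. The E protein gene Tcf3 was lower at -0.14 at 3 h and higher by 0.15 at 0 h, and the 3 h call was lost without Foxp3-guide 3 h replicate 2 (adjusted p 0.291) or control-guide 3 h replicate 2 (adjusted p 0.0848). Lower at both times was Tcf12, also an E protein gene, at -0.36 and -0.32, with list medians of -0.31 and -0.57. In the BACH and small MAF list of 7, 3 were higher and 3 lower at 3 h, and 1 higher and 5 lower at 0 h, with medians of 0.01 and -0.49. Prdm1, which encodes BLIMP-1 and is a BACH2 target, was lower at -1.91 at 3 h and -0.77 at 0 h, while the heme oxygenase gene Hmox1 was higher by 1.33 at 3 h and did not pass at 0 h (-0.02).

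Of 17 other naive and quiescence genes, 4 were higher and 12 lower at 3 h, and 8 higher and 7 lower at 0 h, with medians of -0.50 and -0.02. At 3 h Klf2, which maintains quiescence and migration, was at -2.90, its target S1pr1 at -2.17 and Ccr7, a homing receptor of naive cells, at -1.64. At 0 h Klf2 was at -0.37 and S1pr1 at 0.11, both past the threshold, and Ccr7 at -0.07, not past it. The quiescence gene Slfn2 was higher by 0.28 at 3 h and 1.32 at 0 h. Of 2 genes of naive T cells, Igfbp4 was higher by 1.49 at 3 h and 1.11 at 0 h, while Actn1 was lower at -0.73 at 3 h and higher by 0.87 at 0 h. Among 8 THEMIS partners and proximal TCR genes, 4 were higher and 4 lower at 3 h, and 6 higher and 2 lower at 0 h, with medians of -0.04 and 0.29. Ptpn6, which encodes the phosphatase SHP-1, was lower at -0.83 at 3 h and higher by 0.66 at 0 h. Of 12 effector-state transcription factors, 4 were higher and 7 lower at 3 h and 4 higher and 3 lower at 0 h, with medians of -0.13 and 0.05. Tbx21, the factor of type 1 responses, was lower at -0.50 at 3 h and higher by 1.86 at 0 h. Over 20 alternative settings its 0 h change ran from 0.95 to 2.01 and kept its call. Bcl6, the factor of follicular helper cells, was higher by 1.24 at 3 h and 0.74 at 0 h. Of 7 MYB partners and targets, 5 were higher and 2 lower at 3 h and 2 higher and 4 lower at 0 h, with medians of 0.39 and -0.24 and with the mitotic cyclin gene Ccnb1 higher by 2.87 at 3 h and 2.55 at 0 h. After stimulation, the naive and quiescence list had 4 genes rising and 13 falling with the Foxp3 guide, and 3 rising and 14 falling with the control guide. The effector-state list had 10 rising and 2 falling with each guide. The TCF/LEF list had 5 rising and 10 falling with the Foxp3 guide and 4 and 12 with the control guide, the BACH list 5 and 2 against 6 and 1, and the THEMIS list 6 and 2 against 7 and 1. The MYB list had 3 rising and 3 falling with the Foxp3 guide and 2 and 5 with the control guide, and the E and Id list 1 and 2 with each. S1pr1 fell by 6.61 in log2 with the Foxp3 guide and fell by 4.33 in control-guide cells.

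**Figure D3:**
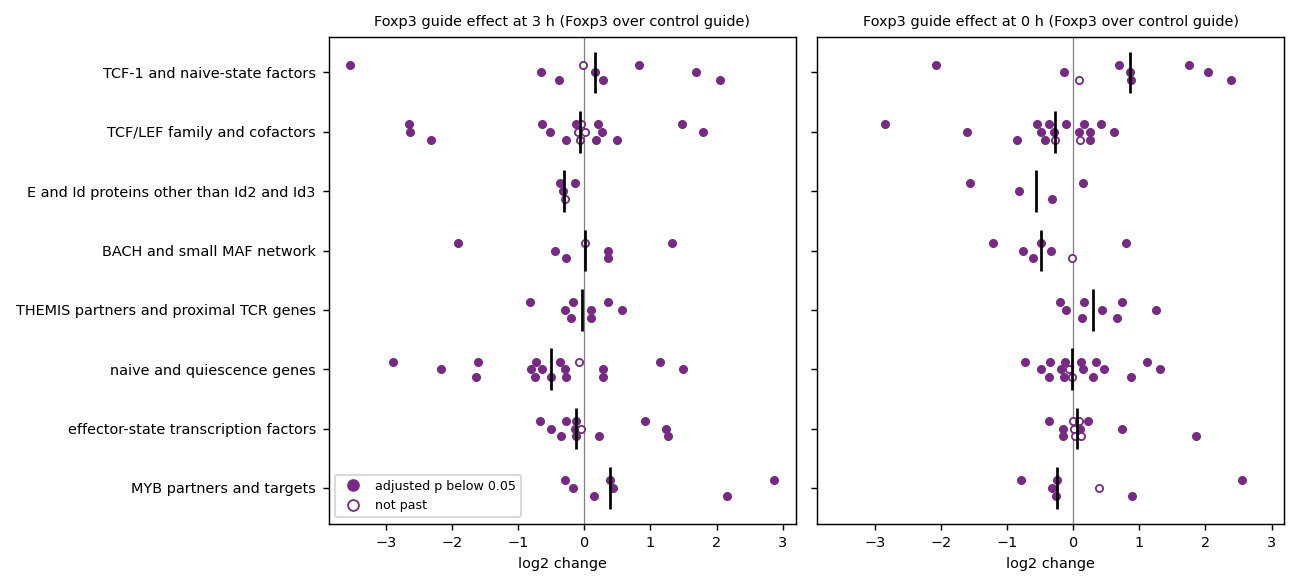
edgeR log2 changes (Foxp3 guide over control guide) of each tested gene in the 9-gene set and 7 lists of related genes at 3 h and 0 h; filled points passed an adjusted p of 0.05 and bars mark medians. The 9 genes had a median of 0.16 at 3 h and 0.86 at 0 h, and the naive and quiescence list had -0.50 and -0.02.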

How the data were processed

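Gene-level RNA-seq tables of 8 libraries were analysed. The submitters' processing notes name Trim Galore 0.6.3, STAR 2.7.9a, RSEM 1.3.1 and the builds mm10 and GRCm38. Both the expected counts and the TPM per gene are the authors' deposited values. The expected counts were rounded and fitted with edgeR 4.0.16 (R 4.3.3): filterByExpr, TMM scaling, robust quasi-likelihood test on all 8 libraries with 4 group means, Benjamini-Hochberg adjustment over 16642 genes and a threshold of 0.05. An SE is the absolute log2 change over the square root of F. CPM uses TMM-scaled library sizes. Deposited TPM values gave the levels and, as log2(TPM + 1) with limma 3.58.1, an alternative scale. DESeq2 1.42.0, limma-voom, other scalings and filters, a replicate block and each library left out were further alternatives. Members and lists were chosen with earlier results of these data known. Genes named from lists are among the 3 called genes with the largest changes of their list in at least 1 of the 5 comparisons (Axin2 in the TCR comparisons). In simulated counts for the guide effect at 0 h, 98% of 50 genes changed 1.5-fold were recovered. The simulation gave all genes 1 common spread, changed few genes, and changed only genes with levels above that of Dapl1. Its recovery therefore does not carry over to genes with a wider spread, to low counts or to data with so many genes called. Replicates of a group differed beyond sampling noise (chi-square per gene 4.38 to 7.11). Of the 55665 identifiers, 55180 matched GENCODE M21 with their version.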

Additional observations from a re-analysis of the deposited data

Results flagged for a closer look

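For 7 of the 9 genes, the TCR effect differed between the guides by edgeR's test of the difference itself, taken as the Foxp3-guide effect minus the control-guide effect on the log2 scale, where 44.8% of all tested genes were called. Tcf7 had -2.10, Id2 -1.58, Myb -1.47, Lef1 -1.23 and Id3 -0.75. Themis had 1.19 and Satb1 0.14, a call that was lost in 10 of 19 alternatives. Both Id2 effects were rises, and the smaller was with the Foxp3 guide. Both effects on Tcf7, Lef1 and Id3 were falls, and the larger was with the Foxp3 guide. Myb and Themis had TCR effects of opposite sign under the guides.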

How the results depend on the processing

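Of the 45 member results, 35 kept their direction and side of the threshold under every alternative setting that applied to them, at most 20 each. Of 886 alternative values, 844 were unchanged in this sense, 22 lost and 11 gained the call, and 9 turned direction. Id2 at 3 h turned to -0.0428 on log2(TPM + 1), with or without the filter, and to -0.043 on log2(TPM + 0.1). Id3 at 0 h turned to -0.21 on the same 3 scales. With each library left out in turn, Bach2 at 3 h ran between -0.0584 and 0.0446, positive without Foxp3-guide replicate 2 or control-guide replicate 1. The Dapl1 difference ran between -0.90 and 0.49, positive without control-guide 3 h replicate 2. Of these, Id2 alone had passed in the reported fit, and the cause was not tested. Of 109 list-gene results, 102 kept their call in every setting and 0 turned direction. These 109 were the called changes of Foxp3 and the largest called changes of each list, at most 3 per comparison. That choice favours calls that hold, and the other list values given above were not followed in this way. Genes called for the difference numbered 7457, and 4843 with unfiltered log2(TPM + 1). Satb1's difference lost its call in 10 settings. The TPM scale moved the median of all genes to -0.12 at 3 h and -0.15 at 0 h, and to -0.18 and -0.20 for the TCR effects with the Foxp3 and control guide. Relative to that median, Tcf7 at 3 h was 0.19, Id2 at 3 h 0.08 and Id3 at 0 h -0.05.

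Same-numbered replicates did not deviate together across groups (correlations -0.0757 to 0.00947), so the numbers are not taken to pair the libraries. A replicate block left 10034 genes called at 3 h, 10319 at 0 h, 14111 and 13527 for the TCR effects with the Foxp3 and control guide, and 7240 for the difference, and changed no member's call. With 1 library left out, 8882 to 10291 genes were called at 3 h, 9418 to 10824 at 0 h, and 6541 to 7323 for the difference.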
